A study of Mus musculus with 12 samples.

Results

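Genes of the motile cilium were followed in mouse lung tumours with and without Dnmt3a. They were the probes whose gene name in the array files began with Dnah, Dnai, Dnal, Tekt, Rsph, Spag, Ift or Bbs, or was Foxj1, Rfx3, Tppp3, Ccdc39, Ccdc40 or Ccdc113. The rule used names and no measured values. It found 49 gene names among 27962 names and identifiers, on 100 of 41174 probes, and 85 probes, with 47 names, were bright enough to be compared, that is, well above background in the KO or in the WT RNA on at least 6 of 12 arrays. No probe carried a name beginning with Rsph or the name Tppp3. Both were reached only through RefSeq accessions and synonyms under older names (Rshl1, Rshl2, Rshl3, Tsga2, Rtdr1, 1700027N10Rik and 2700055K07Rik). Their values are given here separately from those of the members. The Spag prefix also brought in genes that do not belong to the axoneme, and these 14 probes were kept apart as "other Spag" members.

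Both groups of tumours came from mice of strain C57/129 that carried the conditional K-ras LSL-G12D allele, which is turned on by Cre recombinase. In the KO tumours both copies of a conditional Dnmt3a allele were also deleted, whereas the WT tumours kept Dnmt3a, the DNA methyltransferase that sets new methylation. Cre was given to the airways as adenovirus when the mice were 6 to 12 weeks old, and nothing in the labels limits it to one lung cell type. Whole tumours were frozen, so that fewer cells of a type and less RNA per cell cannot be told apart. Each of 12 two-colour arrays, called here by its replicate number, compared 1 KO tumour with 1 WT tumour, and KO was labelled with Cy5 on 6 arrays and with Cy3 on 6. By the ages (unit not given) and sexes in the labels the arrays formed 4 pairs. Pair A had 4 arrays (KO 47.7, WT 42.6) and pair B 4 arrays (KO 27, WT 41.3). Pair C had 2 arrays (KO 27, WT 47.6, a female) and pair D 2 arrays (KO 29.1, WT 37.3). All other tumours came from males. Both dye orientations were used within pairs A and B. In pair C KO was labelled with Cy5 on both arrays and in pair D with Cy3 on both, so pair and dye cannot be told apart there. Pair A lay on slide 1, pair B on slide 2, and pairs C and D on slide 3. Pairs A and B therefore cannot be told apart from their slides. The KO animals of 3 pairs were younger than the WT animals and those of pair A were older, so genotype and age cannot be told apart in any pair. In pair C genotype and sex cannot be told apart either. The labels call the arrays biological replicates but do not say that arrays of one pair used separate animals, and p-values then measure the spread between these samples.

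A motile cilium is a microtubule bundle with a central pair, and it beats because axonemal dynein arms slide the outer doublets past each other. In the lung these cilia stand on the multiciliated cells of the airways, where they move mucus, and Foxj1 is the transcription factor that switches on their genes. Intraflagellar transport (the Ift genes) carries cargo along the axoneme and the BBSome (the Bbs genes) sorts membrane proteins. Both also serve the non-motile primary cilium that most cell types can form, so the members were read in these groups.

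Probes that were well above background made up between 59.0% and 89.6% of all probes in the KO RNA and between 62.1% and 89.4% in the WT RNA of the single arrays, and no probe was saturated. All arrays of slide 3 had lower shares than those of slides 1 and 2. Arrays 11 and 12 had 59.2% and 59% in KO and 64.4% and 62.1% in WT. They also had 648 and 828 outlying spots, against 86 to 133 on the arrays of slides 1 and 2. All 3 Dnmt3a probes were lower in KO (log2 ratios of -0.21, -0.55 and -0.25, with adjusted p of 0.0217, 0.00265 and 0.0158 in limma). Among 10 endothelial markers 8 fell, on all 12 arrays each. Of 10 alveolar type 2 markers 2 fell, of 8 alveolar type 1 markers 1 fell, and among goblet and airway basal cell markers 1 each rose. None of 9 club cell, 10 leukocyte or 11 mitosis genes passed the test. The part of these cell types in the cilium results was not tested.

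Few cilium genes differed between the genotypes. Of the 85 kept member probes 1 rose in KO and 0 fell at an adjusted p under 0.05 (limma with the pair as a random block, Benjamini-Hochberg adjustment over all 35562 kept probes). Over all kept probes 5.71% were called, 2.83% higher and 2.88% lower. At an unadjusted p under 0.05 there were 14 higher members and 1 lower, and 21% of all kept probes passed that level, 10.8% higher and 10.2% lower. The median log2 ratio of the members was 0.018 and that of all kept probes was -0.0026. Of the 38 motile probes (23 genes) none was called, 1 had an unadjusted p under 0.05, and the median ratio was -0.020. Of the 33 probes of genes shared with non-motile cilia 1 rose, 28 had ratios above 0 and 5 below, and the median was 0.14. Over all kept probes 48.8% of the fitted ratios were above 0. The 14 other Spag probes had no call, 4 with an unadjusted p under 0.05, and a median of 0.018.

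Some of the motile probes instead differed widely in ratio between arrays. The SD of the log2 ratio over the arrays was above 0.5 for 14 of the 38 motile probes (36.8%), for 2 of the 33 shared probes (6.06%) and for 0 of the 14 other Spag probes. Over all kept probes this share was 14.5%. One array carried most of it. Without array 11 the SD was above 0.5 for 5 motile probes (13.2%), 1 shared probe and 1 other Spag probe, and for 13.8% of all kept probes. The median SD of the motile probes was 0.28 over all arrays and 0.14 without array 11. Over all kept probes these medians were 0.26 and 0.25.

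**Figure D1:**
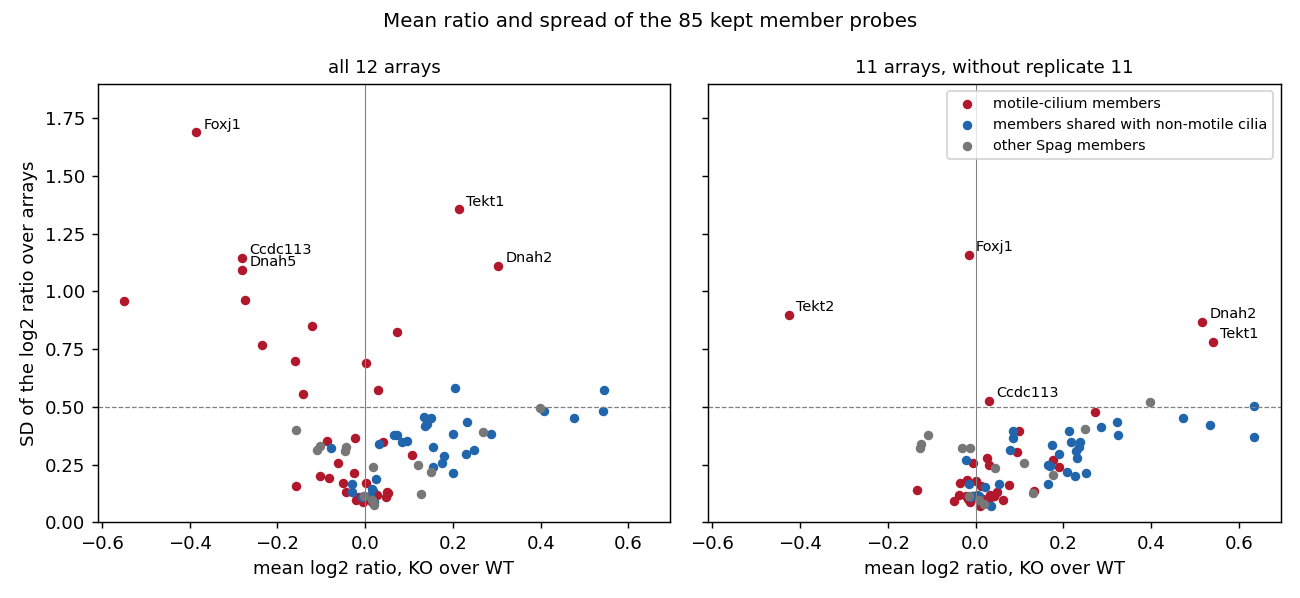
Mean log2 ratio of KO over WT (x axis) against the SD of that ratio over arrays (y axis) for each of the 85 kept member probes, over 12 arrays on the left and over 11 on the right. Points are coloured by group, the dashed line is an SD of 0.5, and the symbols name the 5 probes of largest SD. On the left 14 motile probes lie above the line, on the right 5.

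Foxj1 had the largest spread of all members. In KO tumours its log2 level was 6.60 at the lowest, 7.41 at the median and 9.25 at the highest. In WT tumours these values were 6.38, 7.72 and 13.69. The 2 groups overlapped except for the WT tumour on array 11, which held the highest level, and the ratio on that array was -4.44. On array 12 of the same pair the ratio was 1.79, with a KO level of 9.095 and a WT level of 7.31. The WT tumours of these arrays, for which the labels give one age and one sex, were thus far apart in Foxj1. The fitted log2 ratio was -0.42 ± 0.53 (SE, n = 12, limma adjusted p = 0.722), with 5 arrays above 0 and 7 below. Without array 11 the mean ratio was -0.016, and the fitted value turned to a small positive one, 0.047.

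**Figure D2:**
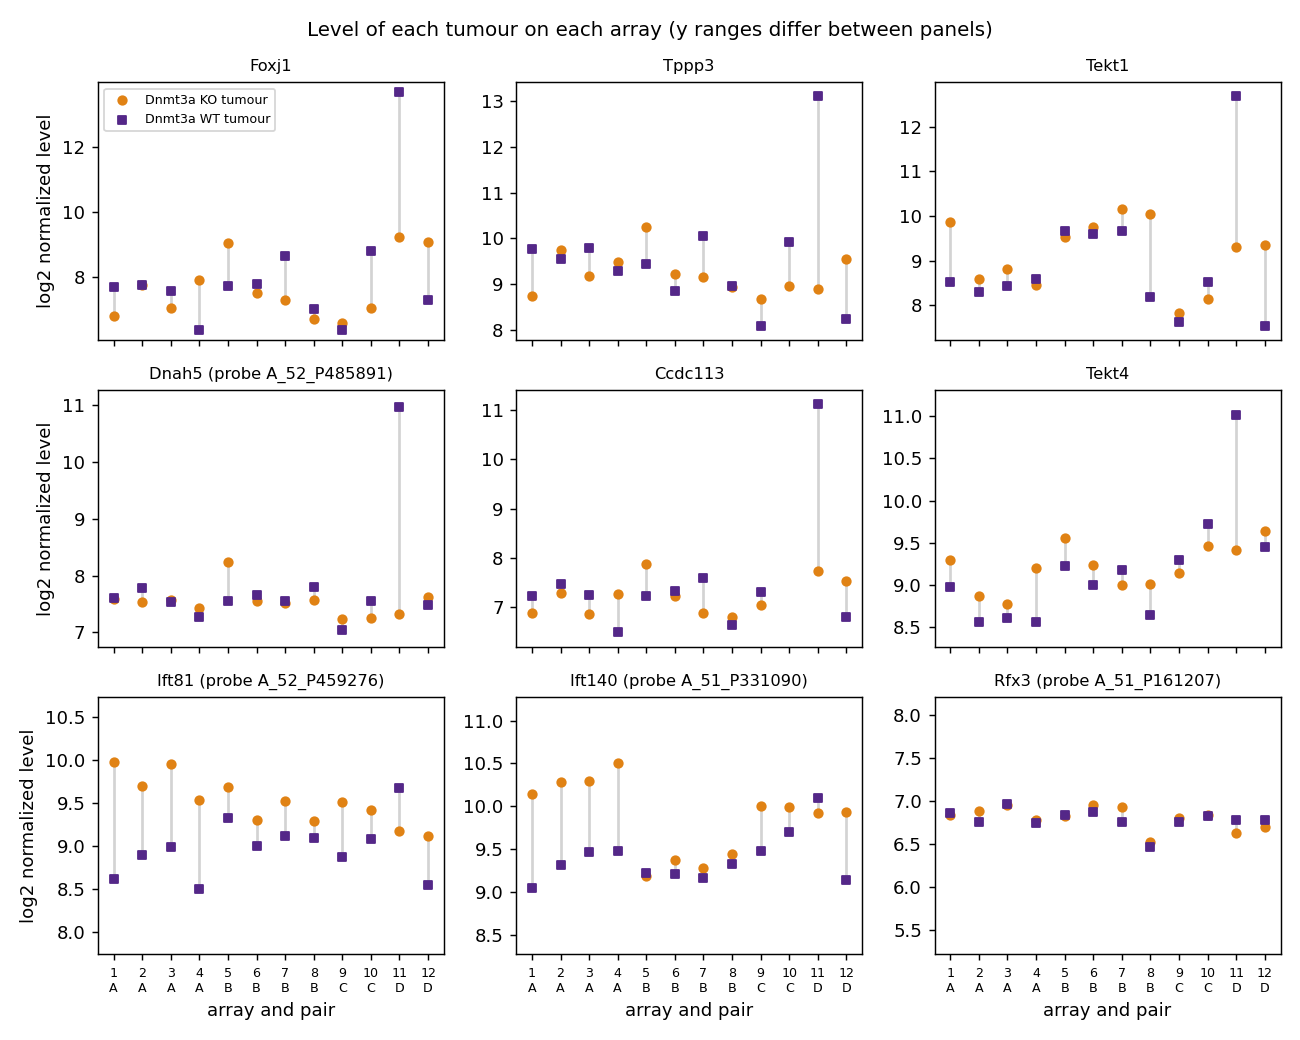
Log2 normalized level (y axis) of 9 genes in the KO tumour (circle) and the WT tumour (square) of each array (x axis, with the pair letter below), joined by a grey line. In the upper 6 panels the WT tumour of array 11 stands above all others, at 13.69 for Foxj1 and 13.11 for Tppp3. In the Ift81 and Ift140 panels the 4 arrays of pair A show the widest gaps between KO and WT.

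Tppp3 and Tekt4, the other 2 markers of ciliated cells, shared that peak. Tppp3, a tubulin-binding protein of the ciliated cell, was read by the probe filed as 2700055K07Rik. Its levels were 8.67, 9.17 and 10.25 (lowest, median, highest) in KO and 8.09, 9.50 and 13.11 in WT, with a ratio of -4.21 on array 11 and a fitted ratio of -0.38 (adjusted p = 0.694 in limma). Tekt4, a tektin filament protein of the doublet wall, had levels of 8.77, 9.22 and 9.64 in KO and 8.57, 9.09 and 11.01 in WT. Its fitted ratio was 0.0057 ± 0.17 (SE, n = 12, limma adjusted p = 0.990), and its sign turned in 13 of 32 other settings. All 3 markers were well above background on most arrays (11 or 12 of 12 in each genotype).

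The other tektins differed from each other. Tekt1 (probe A_51_P328889) had ratios of 1.35, 1.86 and 1.83 on arrays 1, 8 and 12 against -3.38 on array 11, where its WT level was 12.69. The second Tekt1 probe (A_51_P328890) was at -2.11 there. The fitted ratio of the first was 0.18 ± 0.42 (SE, n = 12, limma adjusted p = 0.860). Tekt2 was the motile probe with the lowest fitted ratio, -0.56 ± 0.29 (SE, n = 12, limma adjusted p = 0.303). Its low arrays were not those of Foxj1 alone, since its ratio was -2.03 on array 2 and -1.34 on array 3, where Foxj1 was at 0.013 and -0.50. On 8 of 12 arrays Tekt2 was lower in KO. Tekt3 stayed between -0.16 and 0.17 on its 11 usable arrays.

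The RFX factors bind the X-box, a motif known from promoters of ciliary genes, so the 250 bases before each start were searched for it on both strands in the RefSeq promoter table (GRCm38.p6). Of 47 kept member genes 40 were in that table, and Dnahc3, Foxj1, Ift122, Ift80, Ift81, Spag1 and Spag11a were not. The X-box, with up to 3 bases between its left and right arms, was found in 5 of the 40 genes (12.5%), namely Dnaic1, Dnaic2, Ift57, Spag16 and Tekt2. It was found in 1.29% of all 32851 windows and in 1.49% of all 27025 genes. The forkhead core GTAAACA was found in 1 of the 40 genes, Tekt3, and in 3.54% of all genes. Matches are letters only and show no binding. The 2 windows that end at the outermost RefSeq start of their gene are shown because one belongs to a motile gene of wide spread and the other to a transport gene, with capitals for the X-box letters. Tekt2 is at chr4:126325689-126325938 on the minus strand and Ift57 at chr16:49699044-49699293 on the plus strand, both written 5′ to 3′ along the gene.
Tekt2: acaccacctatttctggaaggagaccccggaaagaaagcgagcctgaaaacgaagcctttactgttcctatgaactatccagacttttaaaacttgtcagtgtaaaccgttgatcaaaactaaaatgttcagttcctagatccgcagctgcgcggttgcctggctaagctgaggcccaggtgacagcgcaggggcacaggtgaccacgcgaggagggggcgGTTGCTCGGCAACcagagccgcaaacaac
Ift57: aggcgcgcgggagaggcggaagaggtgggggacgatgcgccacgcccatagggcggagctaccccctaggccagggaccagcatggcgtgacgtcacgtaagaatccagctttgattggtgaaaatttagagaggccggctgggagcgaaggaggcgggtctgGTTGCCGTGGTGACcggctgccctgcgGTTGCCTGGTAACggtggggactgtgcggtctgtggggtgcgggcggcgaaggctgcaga
The match in the Tekt2 window lies 17 to 29 bases before the start, and those in the Ift57 window lie 48 to 60 and 74 to 87 bases before it. Genes with a match included both wide and narrow spreads. Tekt2 had an SD of 0.96 over the 12 arrays, Ift57 (probe A_51_P511482) one of 0.58, Dnaic1 one of 0.19 and the Dnaic2 probe, filed as Dnai2, one of 0.095.

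The dynein heavy chains, the motors of the arms (10 names, 23 of 29 probes kept), had 11 ratios above 0 and 12 below, from -0.31 to 0.28, with a median of -0.0045 and no call. Their median SD over the arrays was 0.17. On array 11, 10 of the 22 heavy chain probes with a ratio lay beyond 0.5 in either direction, and 2 of the 23 did so on any other array. Dnahc5, an outer arm heavy chain, was at -3.65 on array 11 by probe A_52_P485891 and between -0.28 and 0.69 on all others. Its 2 other kept probes were at -0.85 and -0.22 on array 11, the first with its KO signal not well above background. Dnahc9, also of the outer arm, was at -3.22 on array 11 by probe A_51_P416308. Its probe A_52_P188874 was at 1.5 there, but the WT signal of that probe was not well above background on array 11, and the probe was kept through the KO RNA alone (8 KO and 4 WT arrays), so this value is not an exact ratio. Dnahc2, an inner arm chain, varied on many arrays, with ratios of 1.93 on array 1, 1.79 on array 12 and -2.05 on array 11. Its fitted ratio was 0.28 ± 0.33 (SE, n = 12, limma adjusted p = 0.707). Dnahc11 was at -1.84 on array 11, with its KO signal not well above background, and within -0.32 and 0.21 elsewhere. The smallest unadjusted p of the heavy chains was that of Dnahc8 (probe A_51_P326631), with a ratio of -0.16 ± 0.050 (SE, n = 12, limma adjusted p = 0.0760) and 11 of 12 arrays below 0. Its levels ran from 6.66 to 6.99 in KO and from 6.74 to 7.38 in WT, so the groups overlapped, and it was well above background on 8 KO and 11 WT arrays. The next Dnahc8 probe (A_52_P106811) had a ratio of 0.047.

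Intermediate and light chains were mostly level. Dnaic1, an outer arm intermediate chain, had a ratio of -0.093 (limma adjusted p = 0.429), and the probe filed as Dnai2, for the partner chain, one of 0.015 (0.860). On array 11 they were at -0.58 and -0.11. Dnali1, an inner arm light intermediate chain, was at -2.54 on array 11, where its KO signal was not well above background, and had a fitted ratio of -0.15 (limma adjusted p = 0.814). Dnalc4, filed under an old name of Dnal4, had a ratio of 0.098 (limma adjusted p = 0.539) and ran from -0.55 to 0.51.

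Among the remaining motile members, Ccdc113 and Ccdc40, coiled-coil proteins of the axoneme, were at -3.39 and -2.07 on array 11. Ccdc113 had 11 usable arrays and a fitted ratio of -0.30 ± 0.37 (SE, n = 11, limma adjusted p = 0.710). Ccdc40 had one of -0.015 (limma adjusted p = 0.980). Spag6, a central pair protein, was at -2.25 on array 11 and Spag16, of the same structure, at -2.61 by probe A_52_P376460 and -0.68 by A_51_P118506, both with KO signals not well above background there. Their fitted ratios were -0.18, -0.26 and -0.11, none called. The radial spoke probes, reached by accession, had fitted ratios from -0.45 to 0.024. The lowest was Rsph3a (filed as Rshl2), with 3 probes at -0.35, -0.43 and -0.45 and adjusted p of 0.160, 0.138 and 0.0769 in limma.

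Array 11 was set apart by its WT tumour. Of the 38 motile probes 16 (42.1%) had log2 ratios under -1 there, against 3 of 33 shared probes (9.09%), 0 of 14 other Spag probes and 3.09% of all kept probes. For 5 of these 16 probes the KO signal on that array was not well above background, so their ratios are not exact. On array 12 the Foxj1 level was 9.095 in KO and 7.31 in WT. There 4 of 38 motile probes (10.5%) had ratios above 1, against 2.34% of all kept probes. The mean WT level of the motile probes was 8.55 on array 11 and no higher than 7.47 on the others, while the mean KO level on array 11, 7.40, was inside the KO range of 7.15 to 7.62. For Foxj1 itself, the KO level on array 11, 9.25, was also the highest KO level of any array. Of the 15 motile probes within 0.5 of 0 on array 11, 12 were dynein heavy chain probes. Among these, Dnahc1 A_52_P113861, Dnahc8 A_52_P106811 and A_52_P426039, Dnahc9 A_52_P124488, Dnahc10 A_51_P251468 and Dnahc12 A_51_P203340 had neither signal well above background there. Their ratios near 0 therefore do not show equal levels. Dnahc8 A_51_P326631, at -0.42, had only its WT signal well above background. Both Dnahc3 probes, Dnahc1 A_52_P456714, Dnahc5 A_52_P548463 and Dnahc6 A_51_P121134 had both signals above it. Other lists moved on the same array. Of 46 nexin link, central pair and other axoneme genes 29 were under -1 (median -1.61), of 13 dynein assembly and docking genes 7 (median -1.0), and of 13 regulators of multiciliated cells 4. By the brightest probe of each gene, 4.19% of all genes were under -1 there. Of 9 club cell markers, secretory genes of the airway, 8 were under -1, with a median of -3.71, and Scgb1a1 and Scgb3a2 were at -5.82 and -6.43. The mean WT level of the club list was 14.23 there and at most 12.00 on the other arrays. Of 6 goblet cell markers 3 were under -1. The medians of the alveolar type 2, leukocyte and mitosis lists were -0.28, -0.044 and 0.39 on that array, and that of the endothelial list was -1.36, against -0.97 to -0.49 elsewhere. The part of airway cells in the motile values of array 11 was not tested.

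**Figure D3:**
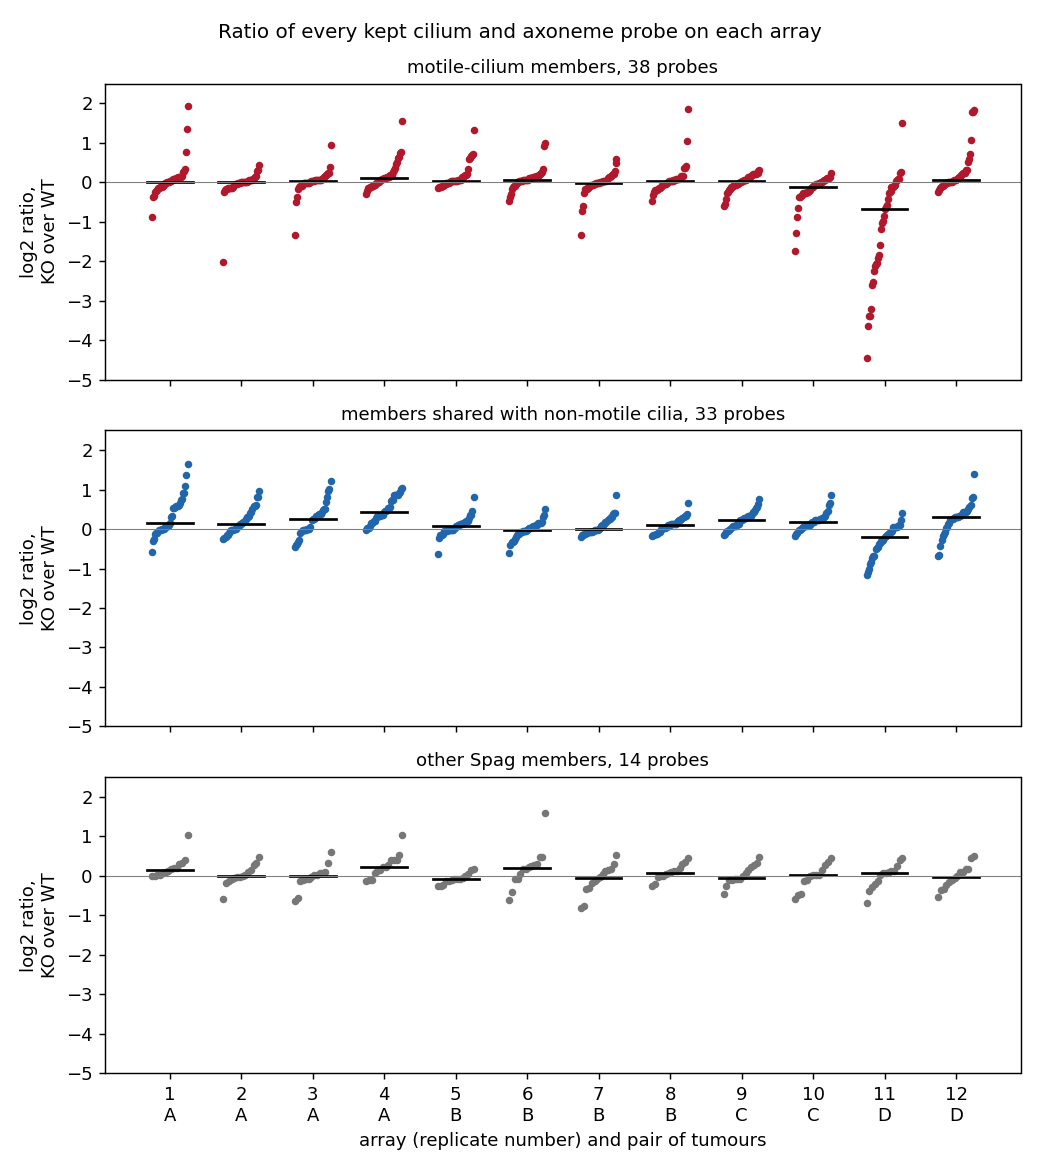
Log2 ratio of KO over WT (y axis) of every kept member probe on each array (x axis, with the pair letter below), in 3 panels by group. Points are probes sorted by value and black lines are medians. The motile median is -0.68 on array 11 and between -0.13 and 0.11 on the others.

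The Foxj1 ratio went with those of other cilium and airway genes over the arrays. As a description of these 12 arrays, Pearson's r against the median of the other motile probes was 0.849 and Spearman's rho 0.762. Without arrays 11 and 12, the 2 farthest from the median, r was 0.749. Against the median of the club markers r was 0.85 (permutation p = 0.0016, adjusted over 4 relations 0.0032) and rho 0.657 (permutation p = 0.023, adjusted 0.047), with r of 0.652 without these 2. Without array 11 alone r was 0.624 and rho 0.555 for the club markers. Against the median of the shared members r was 0.745 and rho 0.517. The r fell to 0.442 without the 2 arrays, so this relation rests on them. Against the alveolar type 2 markers r was -0.343 (permutation p = 0.28, adjusted 0.28) and rho -0.378 (permutation p = 0.23, adjusted 0.23). Without arrays 11 and 12 this r was -0.441, and without array 11 alone it was -0.6 (rho -0.545). These values were not tested. The tests used 100000 resamples over 12 arrays and were two-sided. Values were permuted freely over the arrays, without regard to pair or slide, so the p-values treat all 12 arrays as independent. Arrays of one pair may share animals, and no slide held more than 4 arrays, too few for values within a slide.

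**Figure D4:**
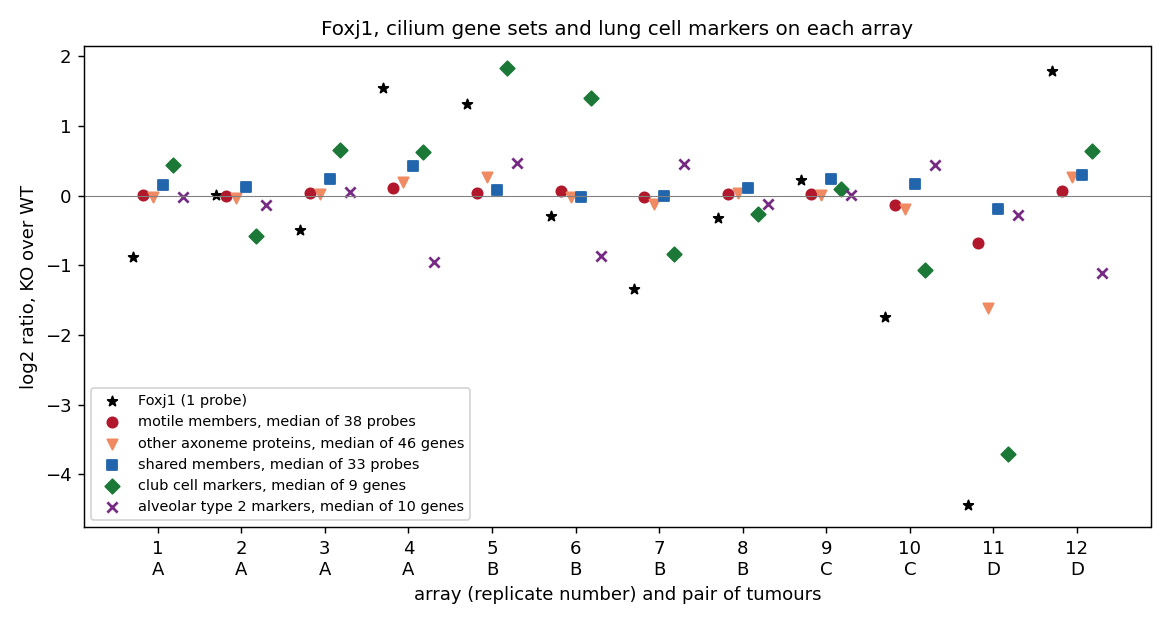
Log2 ratio of KO over WT (y axis) of Foxj1 and the median ratio of 5 gene sets on each array (x axis, with the pair letter below). Foxj1 and the club markers lie lowest on array 11, at -4.44 and -3.71, where the shared members are at -0.19. The alveolar type 2 median is lowest on array 12, at -1.11.

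Among 18646 genes outside and inside the lists, each by its brightest probe, the 10 non-members whose ratio was most like that of Foxj1 over the 12 arrays were 1700021K14Rik (r 0.988), Tmem212 (0.985), BC051019 (0.981), 1700007K13Rik (0.976), Fam183b (0.971), Fam47e (0.965), Speer4d (0.964), Gm9758 (0.961), Mlf1 (0.951) and Speer5-ps1 (0.949). Without array 11 their r ran from 0.877 to 0.973. Of the 20 motile members compared 6 had r above 0.8 (Foxj1 itself, Dnali1, Spag6, Tekt4, Ccdc40 and Dnahc11), of the 17 shared members 0, and of all genes 0.756%. Without array 11 it was 2 motile members, Foxj1 itself and Dnali1, and 0.365% of all genes. The r values are a description of these arrays.

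Of the genes shared with non-motile cilia, only an Ift81 probe was called. Ift81 belongs to the core of the transport complex that carries tubulin outward. For Ift81 A_52_P459276 the KO levels were 9.12, 9.51 and 9.98 (lowest, median, highest) and the WT levels 8.5, 8.99 and 9.68. The groups overlapped, and KO was higher on 11 of 12 arrays. The fitted ratio was 0.53 ± 0.13 (SE, n = 12, limma adjusted p = 0.0420). The second Ift81 probe (A_51_P148573) had KO levels of 10.74, 10.97 and 11.41 and WT levels of 9.77, 10.41 and 11.22, with a ratio of 0.52 ± 0.14 (SE, n = 12, limma adjusted p = 0.0514). Both probes were highest in pair A, at 1.04 and 1.08, and were at 0.034 and -0.038 in pair D. The call was not firm, since the first probe passed in 12 of 31 other settings, with ratios from 0.26 to 1.04 and adjusted p from 0.0104 to 0.603. When single arrays were left out the adjusted p in limma ran from 0.0104 (without array 11) to 0.0922 (without array 12), and it stayed under 0.05 only without array 5, 10 or 11. Without pair A limma called 0 of the 85 members, and 4 had an unadjusted p under 0.05, a level that 17% of all kept probes passed.

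Ift140, of the retrograde transport complex, differed between its own probes. Probe A_51_P331090 had KO levels of 9.19, 9.97 and 10.51 and WT levels of 9.05, 9.32 and 10.095, a ratio of 0.47 ± 0.13 (SE, n = 12, limma adjusted p = 0.0545) and 10 arrays above 0. On the 4 arrays of pair A it was at 1.1, 0.97, 0.82 and 1.03, and on those of pair B at -0.035, 0.16, 0.11 and 0.12. The 3 other Ift140 probes were at 0.018, 0.014 and -0.031. Ift140 had the widest gap between probes of one member gene, 0.50, followed by Dnahc9 with 0.45 and Spag5 with 0.38. Ift122, also retrograde, had a ratio of 0.29 (limma adjusted p = 0.176). It was called only when pair B or array 5 was left out. Ift172, of the outward complex, had a ratio of 0.12 by probe A_51_P354683, was at -1.16 on array 11 and was called without that array. In all, 20 of 22 Ift probes had ratios above 0, from -0.031 to 0.53, with a median of 0.14, and 7 had an unadjusted p under 0.05, all higher. Over all kept probes 48.8% of the ratios were above 0 and 10.8% were higher at that p. On array 11 the Ift median was -0.31 and on the others it ran from -0.031 to 0.55.

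**Figure D5:**
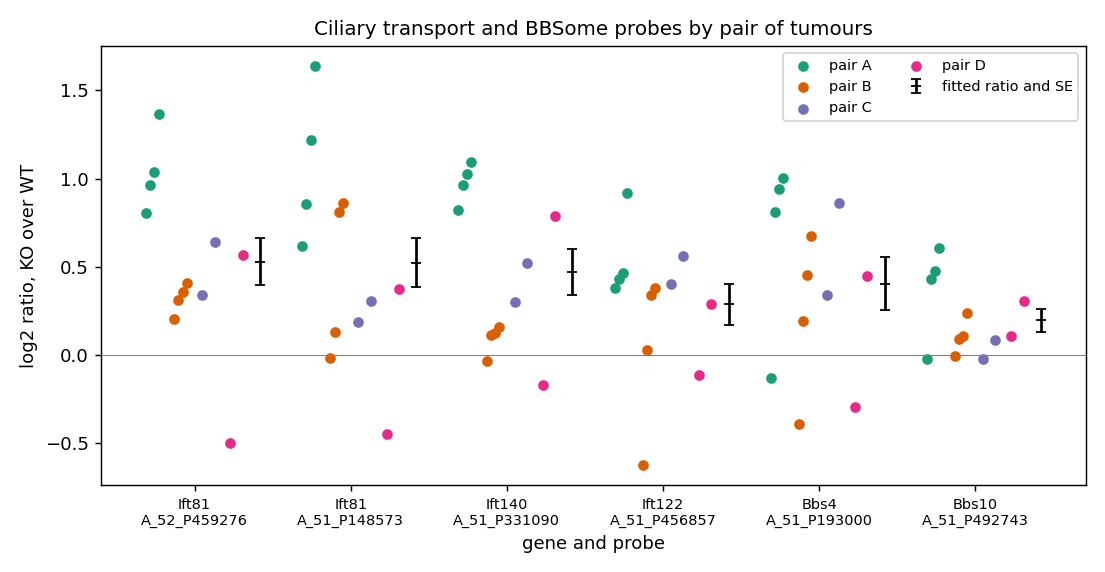
Log2 ratio of KO over WT (y axis) of 6 Ift and Bbs probes (x axis), 1 point per array coloured by pair, with the fitted ratio and its SE in black at the right of each group. Pair A lies highest for both Ift81 probes and for Ift140, at fitted pair values of 1.04, 1.08 and 0.98.

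BBSome and chaperonin genes had no call. Bbs4, a BBSome subunit, had KO levels of 8.42, 9.18 and 9.70 and WT levels of 8.31, 8.79 and 9.79, and a ratio of 0.40 ± 0.15 (SE, n = 12, limma adjusted p = 0.141), with 9 of 12 arrays above 0. Bbs10, which helps the BBSome to assemble, had ratios of 0.20 and 0.24 by its 2 probes (limma adjusted p = 0.101 and 0.162). Of 9 Bbs probes 7 were above 0 and 3 had an unadjusted p under 0.05, all higher, against the same shares of all kept probes (48.8% and 10.8%). Rfx3, a transcription factor that binds the X-box, had ratios of 0.017 and -0.0052 by its 2 kept probes (limma adjusted p = 0.828 and 0.961). Both varied little, with SDs of 0.086 and 0.12, and their signs turned in 3 and 7 other settings. Both probes were dim, the first well above background on 10 KO and 9 WT arrays and the second on 8 and 8. Their small SDs therefore do not show a steady Rfx3 level.

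The other Spag members had no call either. Spag5, a mitotic spindle protein, had a ratio of 0.40 ± 0.13 by probe A_51_P513530 (SE, n = 12, limma adjusted p = 0.106), led by 1.58 on array 6 and 1.03 on array 4, and 0.022 by probe A_52_P131891. Spag9, a scaffold of kinase signalling, had one probe of 6 at 0.13 ± 0.037 (SE, n = 11, limma adjusted p = 0.0591) and others from -0.11 to 0.26.

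Other genes of the cilium also gave few calls (the brightest probe of each gene, p adjusted over all kept probes, 6.62% of 19178 genes called). Of 13 measured regulators of multiciliated cells and 13 dynein assembly and docking genes none was called. Among 46 nexin link, central pair and other axoneme genes Ccdc65, of the nexin link, fell by 0.42 on the log2 scale (SE 0.094, limma adjusted p = 0.0284), on 11 of 12 arrays. Among 33 other transport and transition zone genes Ttc21b, a retrograde transport subunit, rose by 0.22 (SE 0.052, limma adjusted p = 0.0306), on 10 of 12 arrays. The medians of the 4 lists were 0.0026, -0.048, -0.097 and 0.10.

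The ratios of the members seldom differed between the 4 pairs beyond the spread within pairs. A limma F test over the pairs called 1 of 85 kept member probes, and 0.368% of the 35349 probes tested. This was Dnahc12 (probe A_52_P725041, adjusted p = 0.0476), whose pair values were 0.18, -0.00062, 0.014 and -1.02 for A, B, C and D. Pair D rests there on array 11 alone, as array 12 gave no usable ratio, and the KO signal on array 11 was not well above background. The call therefore rests on 1 array and a ratio that is not exact. The 3 other Dnahc12 probes had adjusted p from 0.585 to 0.677. The next 3 members by this test were Spag4 (probe A_51_P513992, adjusted p = 0.124), Ift81 (A_51_P148573, 0.132) and Ift140 (A_51_P331090, 0.199).

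Of the 15 member probes too dim to keep, both Ccdc39 probes and the single Spag17 probe were the last of their genes, so these 2 names have no result. The others were further probes of Dnahc1 (2 probes), Dnahc2, Dnahc3, Dnahc6, Dnahc9, Bbs7, Ift57, Ift80, Rfx3, Spag6 and Spag16, each on at most 5 arrays above background in either genotype. Of the 85 kept probes 82 met the filter in both genotypes and 3 in KO alone, Dnahc1 A_52_P113861 (7 KO and 4 WT arrays), Dnahc9 A_52_P188874 (8 and 4) and Dnahc12 A_51_P275729 (6 and 5).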

How the data were processed

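Probe intensities and local backgrounds were deposited by the authors as read from each array by Agilent Feature Extraction 10.1.1.1 (protocol GE2-v5_10_Apr08, design 014868, annotation build mm7, per the file headers), with flags per spot and dye and no normalization. The authors' deposited log2 ratios come from the series table, and the submitters' processing notes name limma. Set against the intensities, they correlated with the ratios used here at 0.9913 to 0.9973 with KO over WT as direction. Their medians per array ran from -0.0111 to 0.00784, and no source used here states their centring.

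From the intensities, background was corrected with normexp (offset 50) after flagged outlying local backgrounds were replaced by the array median of that dye (341 to 2116 spots in Cy3 and 899 to 1239 in Cy5 per array), and ratios were normalized by loess within each array in limma 3.58.1 (R 4.3.3). Outlying spots (86 to 828 per array) were left out, so some probes have fewer than 12 arrays. Every ratio was turned to log2 KO over WT. Levels per dye came from the same ratios after quantile normalization of the average log2 intensity; probe levels were not compared between probes. The main test was limma with a term for dye orientation and the pair as a random block, at a consensus correlation of 0.079. The same fit was also run on simulated ratios with known changes. These were drawn independently for each array, without pair or dye effects, so they do not test the block or the dye term. Precision is limited by the number of arrays.

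Member names were updated through RefSeq (GRCm38.p6), 56 probes by accession and 41 by name or synonym, and 3 kept the file's name. The members, gene lists and tests were chosen with earlier results of these data known. Named were Foxj1, Rfx3, Tekt4 and Tppp3, the called probes or else the 2 of smallest p in each name group, the 6 of largest SD, the 3 genes whose probes differed most, the 4 smallest p between pairs, up to 4 called genes of each other cilium list, and the 10 non-members most like Foxj1. Other genes, such as those named for array 11 or for a call in another setting, were named after their values were seen.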

Additional observations from a re-analysis of the deposited data

Results flagged for a closer look

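The ratio of Dnahc12, a dynein heavy chain, by probe A_52_P725041 differed between the 4 pairs of tumours (limma F test, adjusted p = 0.0476). It was -1.02 on array 11, the only usable array of pair D for this probe, and its KO signal there was not well above background, so that ratio is not exact. The ratio was between -0.12 and 0.46 on the other 10. The 3 other kept Dnahc12 probes did not pass this test, and 1 of them, A_52_P388686, was at -1.17 on array 11, also with its KO signal not well above background. With the authors' deposited log2 ratios no member passed it.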

How the results depend on the processing

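The test over all kept probes called 2032 and that over the members 1. With no block these counts were 3269 and 4, with the slide as a random block 2876 and 4, with 1 mean value per pair 51 and 0, with median centring 486 and 0, and with a trended robust variance 627 and 0. With local backgrounds as deposited 940 probes were higher and 585 lower, against 1007 and 1025. Members were called 2 times without a dye term, 4 times with Agilent's processed signals and 2 times with the authors' deposited ratios. Over all kept probes 4.98%, 6.57% and 5.58% were called in these settings. At 1 probe per gene 2 members were called (7.43% of all genes), and with array weights 3 (7.99% of all kept probes). All kept probes gave 578 calls without pair A (0 members), 1192 without B, 1183 without C and 1268 without D. Without single replicates they gave 1053 to 2686 and the members 0 to 4. Within slides 1, 2 and 3 there were 0, 1 and 0 calls over all probes and 0 members each (limma), with 23 of 85, 5 of 85 and 6 of 80 members at an unadjusted p under 0.05, against 14.9%, 14.8% and 16.2% of all probes. The member called between pairs was lost (0) with the authors' ratios. Where no member was called, 4 to 23 passed 0.05 before adjustment, as did 14.8% to 21.1% of all probes in those settings. Of the values of named probes in other settings 923 kept sign and side of the threshold, 22 gained a call (Ift81 A_51_P148573 9, Ift140 A_51_P331090 7, Spag9 A_51_P312896 4, Dnahc8 A_51_P326631 2) and 19 lost one, all of Ift81 A_52_P459276. The median of the members ran from -0.016 to 0.059, a shift smaller than its SD over arrays.

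Signs turned 71 times, never for a called value, and the cause was not tested. Ratios then were: pair means, Tekt4 A_51_P387868 -0.093; processed signals, Rfx3 A_52_P367882 0.0086 and Dnahc9 A_51_P360338 -0.0068; deposited backgrounds, Tekt4 -0.015, Tekt3 A_51_P344527 0.0056 and Ift140 A_52_P231893 -0.0042; median centring, Rfx3 A_51_P161207 -0.0019, Ift140 A_52_P231893 -0.028 and Spag5 A_52_P131891 -0.016; authors' ratios, Tekt3 0.032. With array weights Dnai2 A_51_P316151 was at -0.0053 and Ift140 A_51_P330144 at -0.0064. Without pair A Tekt4 was at -0.15 and Dnai2 at -0.0067, and without B Tekt4 was at -0.060 and Rfx3 A_51_P161207 at -0.0063. Without C Rfx3 A_52_P367882 was at 0.012, Tekt3 at 0.012, Ift140 A_52_P231893 at -0.013 and A_51_P330144 at -0.025, Dnahc9 A_51_P360338 at -0.0043 and Spag4 at 0.037. Without D Rfx3 A_52_P367882 was at 0.013, Dnali1 at 0.077, Dnahc12 at 0.097 and Spag4 at 0.053. Within slide 1 Foxj1 was at 0.044, Dnaic1 at 0.010, Dnali1 at 0.13, Dnahc9 A_51_P416308 at 0.059 and A_51_P360338 at -0.017, Ift140 A_52_P231893 at -0.0048, Dnahc12 at 0.18 and Spag4 at 0.19. Within slide 2 Rfx3 A_52_P367882 was at 0.064, Dnaic1 at 0.020, Dnai2 at -0.0014, Tekt3 at 0.058, Dnali1 at 0.17, Dnahc5 at 0.077, Ift140 at -0.038, -0.029 and 0.028 (3 probes) and Spag4 at 0.12. Within slide 3 Tekt4 was at -0.46, Rfx3 A_51_P161207 at -0.043, Dnai2 at -0.011, Dnalc4 at -0.087, Tekt1 at -0.43 and Dnahc2 at -0.28. Without single replicates the ranges were -0.051 to 0.18 for Tekt4, -0.023 to 0.011 for Rfx3 A_52_P367882, -0.0023 to 0.030 and -0.0010 to 0.027 for Ift140 (A_51_P330144 and A_52_P231893), -0.0010 to 0.033 for Dnai2, -0.68 to 0.047 for Foxj1, -0.25 to 0.11 for Dnali1, -0.45 to 0.038 for Ccdc113, -0.42 to 0.019 for Dnahc5, -0.11 to 0.097 for Dnahc12 and -0.037 to 0.57 for Tekt1.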
